A study of Mus musculus with 20 samples.

Results

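Transcripts of the insulin receptor pathway and of the Y-box protein YBX1 were measured in mouse inguinal white adipose tissue (iWAT) and brown adipose tissue (BAT) with and without the phosphatase-binding protein α4. The 10 genes are Insr, Igf1r, Irs1, Irs2, Pik3r1, Akt1, Akt2, Tbc1d4, Foxo1 and Ybx1, taken by name from the 25219 genes of the deposited table. All 10 are in the table and all 10 passed the filter on low counts in every comparison.

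Insulin binds a receptor tyrosine kinase encoded by Insr, and the related Igf1r encodes the receptor for insulin-like growth factor 1. The active receptor phosphorylates the docking proteins IRS1 and IRS2, which recruit PI3 kinase through its p85α subunit, encoded by Pik3r1, and the lipid that PI3 kinase makes brings the kinases AKT1 and AKT2 to the membrane. In fat cells AKT2 phosphorylates TBC1D4 (AS160), which releases vesicles that carry the glucose transporter GLUT4 to the cell surface, and AKT also moves the transcription factor FOXO1 out of the nucleus. YBX1 is a cold shock domain protein that binds DNA and RNA, and the study examined it as a regulator of Ptpn1, which encodes the tyrosine phosphatase PTP1B that removes phosphate from the insulin receptor.

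Each tissue was represented by 5 libraries of Control and 5 of Ai-α4KO mice, all male. Ai-α4KO mice carry floxed alleles of Igbp1, the gene of α4, and an Adiponectin-CreERT2 transgene, so recombination is driven in adipocytes only and other cells of the tissue keep the gene. Control mice carry the floxed alleles without the transgene, and the labels call them WT. Both genotypes received 5 tamoxifen injections of 100 mg/kg over 6 days from 2 months of age, and tissue was taken 1 week after recombination. The labels do not say whether the same mice gave both tissues or whether each library is a separate mouse, so p-values measure the spread between these libraries.

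Igbp1 was lower in every Ai-α4KO library, at 10.1 to 11.1 CPM (counts scaled to library size) in iWAT against 57.5 to 76.6 CPM in Control, and at 13.7 to 25.2 CPM in BAT against 85.4 to 105 CPM. Library totals ran from 24023371 to 50384446 counts. The tissue labels hold against their markers, since 7 of 8 brown adipocyte genes were higher in Control BAT than in Control iWAT (edgeR, adjusted p below 0.01). The adipocyte marker list was lower in Ai-α4KO, in 10 of 10 genes in iWAT and 9 of 10 in BAT, and its summed level was 33192 to 44308 CPM in Control iWAT against 12864 to 18167 CPM in Ai-α4KO iWAT and 27225 to 29675 against 13867 to 17354 CPM in BAT. The macrophage list was higher in 10 of 10 genes in both tissues, with sums of 1313 to 2240 CPM against 8181 to 10911 CPM in iWAT and of 263 to 593 CPM against 4719 to 7751 CPM in BAT. Endothelial markers were lower in 4 of 6 genes in iWAT and 6 of 6 in BAT (sums of 400.1 to 523 against 231 to 279 CPM, and of 757 to 1082 against 295 to 387 CPM). Neutrophil markers were higher in 4 of 6 and 6 of 6, and in BAT 4 of 6 fibroblast and 4 of 6 T lymphocyte markers were also higher. Brown or beige adipocyte markers were lower in 6 of 7 genes tested in iWAT and 5 of 8 in BAT, where they summed to 7315 to 11296 CPM in Control and 1407 to 2833 CPM in Ai-α4KO. None of the ranges given here overlap, and in tissue RNA fewer cells of a type and less RNA per cell cannot be told apart. Skeletal muscle RNA also stood apart. Its 8 markers summed to 7413 CPM in Control iWAT library 4 and 5270 CPM in Ai-α4KO iWAT library 1, against at most 185 CPM in the other iWAT libraries, and to 922 to 9546 CPM in Control BAT against 13294 to 44634 CPM in Ai-α4KO BAT. B lymphocyte markers summed to 446 CPM in Control iWAT library 1 and 178 CPM in library 4, against at most 12.008 CPM in the other iWAT libraries. The part of each in the results below was not tested, and values of the 10 genes without these libraries are given beside the genotype calls they change. In BAT the muscle markers do not overlap between genotypes, so a fit with the muscle marker score as a covariate cannot tell muscle RNA and genotype apart. That fit called 23.5% of all genes in BAT, beside 49.8% without the score, so a lost call is not particular to a gene.

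A Y-box is the inverted CCAAT sequence ATTGG, the element from which Y-box proteins take their name. RefSeq promoter windows of 300 bases (250 before the annotated start and 50 after it, build GRCm38.p6) were found for 9 of the 10 genes, all but Insr. They make 14 windows, and 5 windows of 5 genes hold CCAAT on either strand. Across all 32851 windows of that table, 37.4% hold it at least once and 3.37% at least 3 times. The windows of Ybx1 and Foxo1 hold 3 each, and that of Ptpn1 holds 0. They are shown 5′ to 3′ on the strand of the gene with CCAAT or ATTGG in capitals. Ybx1 and Ptpn1 are the pair the study connects. Foxo1 was picked because its RNA was lower in both tissues and its window holds more matches than those of Akt2. Of the 10 genes, Akt2 is the only other one that was lower in both tissues and has a window. A link between matches and RNA level was not tested.
Ybx1, chr4:119294464-119294763, minus strand: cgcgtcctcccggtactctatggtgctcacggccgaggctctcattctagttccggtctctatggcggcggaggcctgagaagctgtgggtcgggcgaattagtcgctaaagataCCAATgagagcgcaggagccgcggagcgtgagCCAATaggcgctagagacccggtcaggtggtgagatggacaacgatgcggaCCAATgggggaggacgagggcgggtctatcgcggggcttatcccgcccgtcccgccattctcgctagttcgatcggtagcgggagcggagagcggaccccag
Foxo1, chr3:52268087-52268386, plus strand: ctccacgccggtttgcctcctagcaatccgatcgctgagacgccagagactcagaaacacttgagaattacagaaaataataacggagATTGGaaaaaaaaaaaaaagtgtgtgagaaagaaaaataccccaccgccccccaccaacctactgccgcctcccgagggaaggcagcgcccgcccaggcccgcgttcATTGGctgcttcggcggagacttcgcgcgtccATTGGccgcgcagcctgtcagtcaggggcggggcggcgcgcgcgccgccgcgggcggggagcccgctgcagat
Ptpn1, chr2:167932077-167932376, plus strand: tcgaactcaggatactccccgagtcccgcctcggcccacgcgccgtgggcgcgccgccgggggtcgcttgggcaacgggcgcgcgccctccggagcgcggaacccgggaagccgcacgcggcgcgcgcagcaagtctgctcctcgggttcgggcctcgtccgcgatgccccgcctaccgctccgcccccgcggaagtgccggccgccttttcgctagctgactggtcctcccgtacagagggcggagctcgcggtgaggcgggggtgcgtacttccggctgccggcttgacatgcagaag
Counted from the annotated start to the first base of each match, the Ybx1 matches lie at -135, -103 and -52 and read CCAAT, and the Foxo1 matches lie at -162, -55 and -23 and read ATTGG. Irs2 holds 2 matches, and Pik3r1 and Akt2 hold 1 each in 1 of their windows. The Ptpn1 window holds 2 matches to the GC box GGGCGG on either strand, a sequence found at least 2 times in 19.5% of all windows. The absence of the letters CCAAT from this window says nothing about sites elsewhere in the gene, and no binding was measured in these libraries.

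The question of the genotype comparison was whether loss of α4 in adipocytes changed the RNA of the pathway itself. In iWAT 5 of the 10 genes were lower in Ai-α4KO and 0 were higher. The 5 were Insr, Irs1, Pik3r1, Akt2 and Foxo1, a receptor, a docking protein, a PI3 kinase subunit, an AKT isoform and a transcription factor. In BAT 3 were lower, Insr, Akt2 and Foxo1, and again 0 were higher. Ybx1 and Tbc1d4 did not pass the test in either tissue.

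A gene was called at an adjusted p below 0.01 in edgeR's quasi-likelihood test. By that rule 40.3% of all genes tested were called in iWAT, 18.8% as lower, and 49.8% were called in BAT, 24.8% as lower. The median log2 fold change of the 10 genes was -0.99 in iWAT and -0.47 in BAT, beside 0.01 and -0.03 over all genes. With a fold change of at least 2 added, 4 of the 10 were called in iWAT (22% of all genes) and 2 in BAT (31.5%). At an adjusted p below 0.05, 7 of the 10 passed in iWAT (54.7% of all genes) and 5 in BAT (63%). At an unadjusted p below 0.05, 2 genes were higher in iWAT (Igf1r and Akt1) and 0 in BAT, while DESeq2 called 0 higher in either tissue and limma on log2(FPKM + 1) called Ybx1 higher in iWAT. Without normalization factors the median over all genes moved to 0.13 in iWAT and 0.23 in BAT, and the share of calls that were higher moved from 53.3% to 62.7% for iWAT and from 50.2% to 67.9% for BAT.

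**Figure D1:**
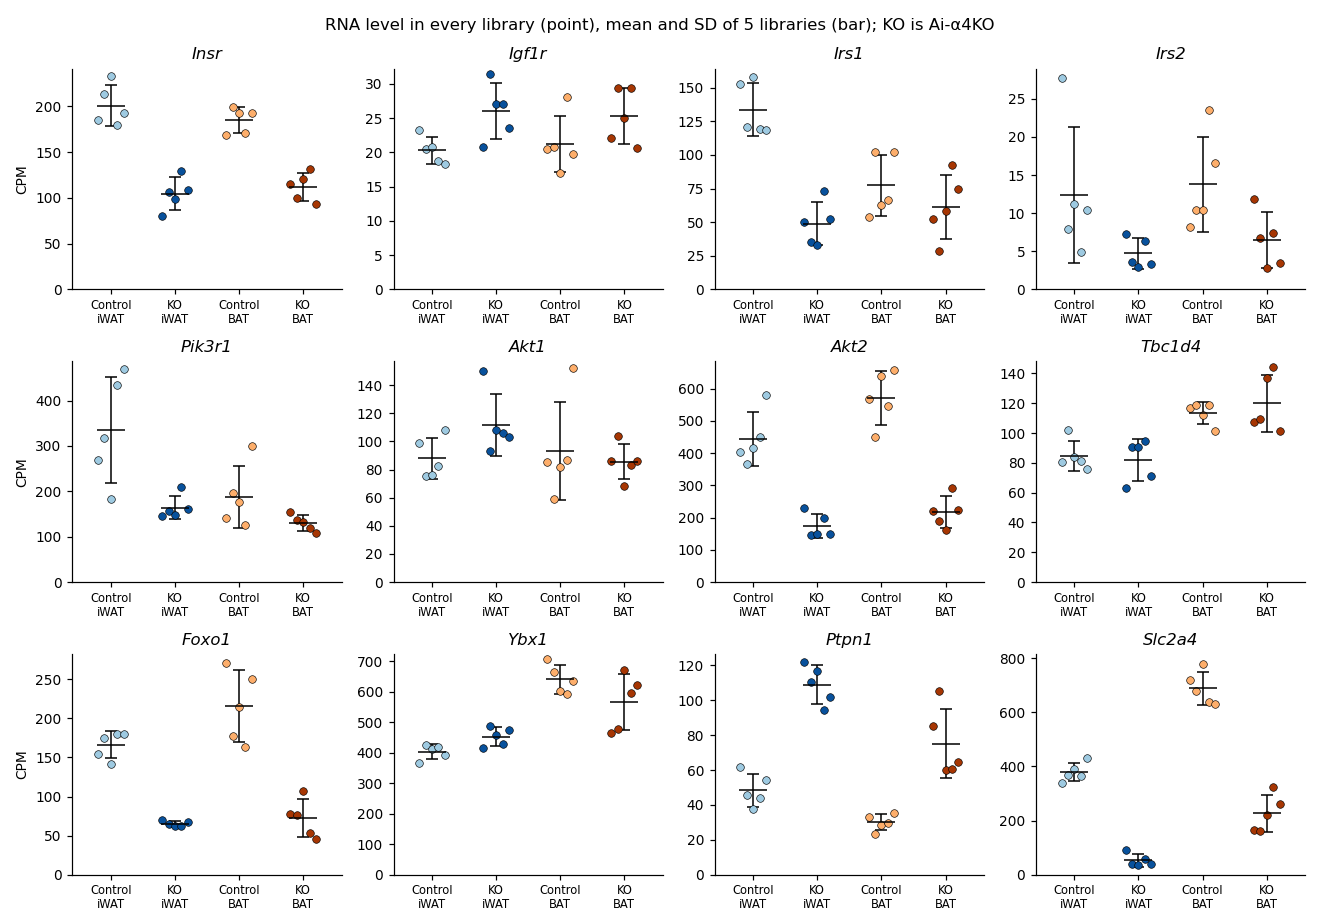
RNA level in CPM (linear axes from 0) of the 10 genes, Ptpn1 and Slc2a4 in each of the 20 libraries; points are libraries and bars are the mean and SD of 5. Insr, Akt2 and Foxo1 separate Control from Ai-α4KO in both tissues, Irs1 separates them in iWAT, and Ybx1 overlaps between genotypes in both.

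Insr encodes the insulin receptor (chromosome 8, 3150922 to 3279617, minus strand, mm10). In iWAT its level was 185, 213, 234, 179.7 and 192 CPM in the Control libraries and 80.0, 107, 98.9, 129 and 109 CPM in the Ai-α4KO libraries. In BAT it was 169, 199.7, 193, 171 and 192 CPM in Control and 116, 99.97, 120.5, 131 and 93.1 CPM in Ai-α4KO. Every Ai-α4KO library lay below every Control library of its tissue, a separation that 39% of all genes show in iWAT and 47.6% in BAT. The log2 fold change was -0.95 (SE 0.13, edgeR adjusted p = 0.00013) in iWAT and -0.76 (SE 0.12, adjusted p = 0.000123) in BAT. Insr passed the adjusted p in every alternative fit in both tissues, with log2 fold changes from -1.11 to -0.77 and from -0.94 to -0.46, but its change was under 2-fold in both and it was not called where that size was also required.

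Igf1r, the receptor for insulin-like growth factor 1 (chromosome 7, 67952257 to 68233667), had the lowest or next to lowest level per transcript length of the 10 genes. It ranged from 18.3 to 23.3 CPM in Control iWAT and from 20.8 to 31.5 CPM in Ai-α4KO iWAT, and from 17.0 to 28.04 and 20.6 to 29.4 CPM in BAT. The genotypes overlapped in both tissues, and the log2 differences of 0.35 (SE 0.12, edgeR adjusted p = 0.0324) and 0.22 (SE 0.16, adjusted p = 0.237) did not pass. Leaving out single libraries moved the BAT value between 0.14 and 0.34. In iWAT it was called higher without normalization factors (0.47, adjusted p = 0.0098) and without Ai-α4KO iWAT library 1 (0.42, adjusted p = 0.00833). 

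Irs1 and Irs2 encode the docking proteins that the receptor phosphorylates. Irs1 (chromosome 1, 82233105 to 82291439) was at 152, 121, 158, 119 and 118 CPM in Control iWAT and at 50.3, 35.0, 33.3, 73.4 and 52.3 CPM in Ai-α4KO iWAT. In BAT the libraries read 53.8, 102, 62.7, 66.6 and 102 CPM in Control and 52.1, 28.7, 58.6, 92.7 and 74.4 CPM in Ai-α4KO. The iWAT groups do not overlap, whereas the BAT groups overlap over most of their range. In iWAT Irs1 fell by 1.46 in log2 (SE 0.21, edgeR adjusted p = 0.000159), while the BAT difference was -0.37 (SE 0.28, adjusted p = 0.268). Over the alternative fits the BAT estimate ran from -1.15 to -0.13 without passing, and it was -0.19 without Ai-α4KO BAT library 2. The value of -1.15 was that with the skeletal muscle marker score as a covariate (adjusted p = 0.0236), a fit in which the genotypes do not overlap in the score.

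Irs2 (chromosome 8, 10986964 to 11008430) was low and variable, with 66 to 1309 counts in a library. Control iWAT ran from 4.86 to 27.7 CPM and Ai-α4KO iWAT from 2.94 to 7.32 CPM, and BAT from 8.19 to 23.5 and from 2.79 to 11.9 CPM. The log2 differences were -1.40 (SE 0.45, edgeR adjusted p = 0.020) in iWAT and -1.14 (SE 0.39, adjusted p = 0.0237) in BAT, and neither passed. Over the alternative fits the iWAT value lay between -1.82 and -0.71 and the BAT value between -1.59 and -0.58, with the smallest differences on the log2(FPKM + 1) scale. Without Control iWAT library 1, the highest of its group, the iWAT value was -0.94 (adjusted p = 0.0409). DESeq2 called Irs2 lower in both tissues, as did edgeR without Control iWAT library 4 or without Ai-α4KO BAT library 1. Without the pair of iWAT libraries high in muscle RNA the iWAT value was -1.82 (adjusted p = 0.0048).

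Pik3r1 encodes p85α, the regulatory subunit that ties PI3 kinase to the IRS proteins (chromosome 13, 101680761 to 101768217). Control iWAT libraries held 268, 319, 184, 434 and 469 CPM and Ai-α4KO iWAT libraries 147, 156, 148, 209 and 162 CPM. Control BAT libraries held 141, 195, 177, 127 and 301 CPM against 154, 136, 133, 119 and 108 CPM in Ai-α4KO. Control libraries spread more widely than Ai-α4KO libraries in both tissues (SD 118 against 25.9 CPM in iWAT and 68.7 against 17.5 CPM in BAT), and the genotypes overlap in both. The log2 fold change of -1.03 in iWAT (SE 0.23, edgeR adjusted p = 0.00296) passed, and that of -0.57 in BAT (SE 0.21, adjusted p = 0.0335) did not. The BAT value was -0.34 without Control BAT library 5, the highest of its group, and -0.92 with the muscle marker score as a covariate, and passed in neither. The iWAT call was lost in limma, without Ai-α4KO iWAT library 3, and without the pair of iWAT libraries high in muscle RNA (-0.89, adjusted p = 0.0149).

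Akt2 encodes the AKT kinase best known for insulin-stimulated glucose uptake in fat (chromosome 7, 27591560 to 27639453). It was at 405, 366, 417, 451 and 581 CPM in Control iWAT and at 229, 147, 149.7, 200.03 and 150.4 CPM in Ai-α4KO iWAT. In BAT the values were 568, 449.9, 638, 545 and 659 CPM against 221, 190.2, 161, 292 and 223 CPM. The genotypes were separated in both tissues, with the lowest Control library above the highest Ai-α4KO library. In iWAT Akt2 fell by 1.35 in log2 (SE 0.17, edgeR adjusted p = 6.6e-05) and in BAT it fell by 1.44 (SE 0.17, adjusted p = 1.69e-05), and the call held under every alternative run. Akt1, the more widely expressed isoform (chromosome 12, 112653821 to 112674276), ranged from 75.4 to 108 CPM in Control iWAT and from 92.9 to 149.8 CPM in Ai-α4KO iWAT, and from 59.2 to 152 and 68.5 to 104 CPM in BAT. The groups overlap, and its differences of 0.34 in iWAT (SE 0.15, adjusted p = 0.0806) and -0.16 in BAT (SE 0.22, adjusted p = 0.539) did not pass, the latter changing sign to 0.11 without normalization factors. Without Ai-α4KO iWAT library 1 the iWAT value was 0.21.

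Tbc1d4 encodes the Rab GTPase-activating protein that holds GLUT4 vesicles inside the cell until AKT phosphorylates it (chromosome 14, 101442360 to 101609191). Its level was 76.1 to 102 CPM in Control iWAT and 63.1 to 94.5 CPM in Ai-α4KO iWAT, and 101 to 119 against 102 to 144 CPM in BAT. The genotypes overlap in both tissues. The differences of -0.05 in iWAT (SE 0.13, edgeR adjusted p = 0.750) and 0.04 in BAT (SE 0.12, adjusted p = 0.773) are smaller than their errors, and the first reads 0.06 without normalization factors. Slc2a4, the gene of the transporter GLUT4 itself, fell by 2.85 in iWAT and fell by 1.64 in BAT (SE 0.26 and 0.19, adjusted p = 8.28e-06 and 1.53e-05).

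Foxo1 encodes the AKT-regulated transcription factor of the pathway (chromosome 3, 52268337 to 52350109). Control iWAT libraries held 155, 174, 142, 180.3 and 180.0 CPM and Ai-α4KO iWAT libraries 69.4, 64.2, 61.8, 61.7 and 66.9 CPM. In BAT the levels were 271, 177, 215, 163 and 250.4 CPM in Control and 78.1, 76.9, 107, 53.6 and 45.6 CPM in Ai-α4KO. Groups are apart in both tissues, and the Ai-α4KO iWAT libraries lie within a narrow range (SD 3.37 CPM). Foxo1 fell by 1.37 in iWAT (SE 0.10, edgeR adjusted p = 3.16e-06) and fell by 1.61 in BAT (SE 0.23, adjusted p = 8.66e-05), the smallest adjusted p of the 10 genes in iWAT. With the muscle marker score as a covariate the BAT value was -1.19 and no longer passed (adjusted p = 0.0156). That fit called 23.5% of all genes in BAT, beside 49.8% without the score.

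**Figure D2:**
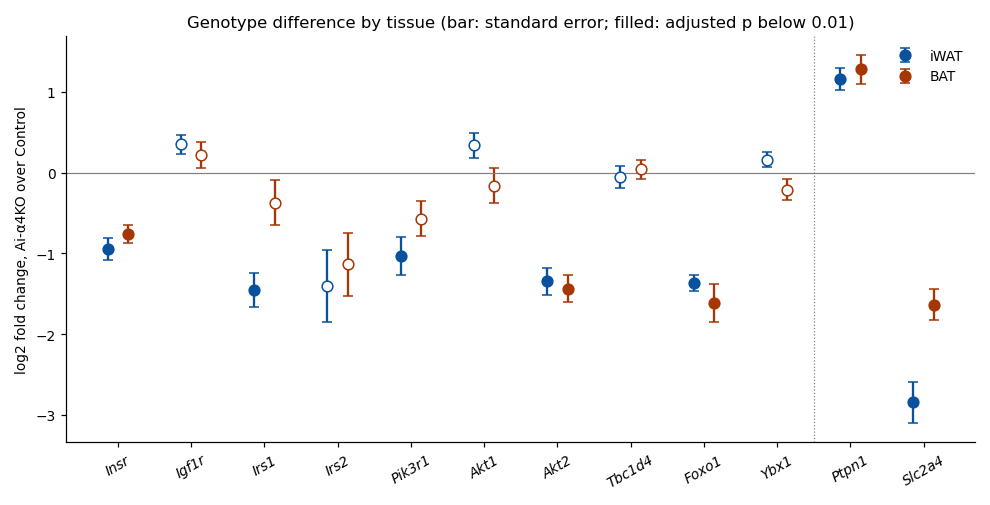
Log2 fold change of Ai-α4KO over Control for the 10 genes, Ptpn1 and Slc2a4 in iWAT (blue) and BAT (brown); bars are standard errors and filled points passed an adjusted p below 0.01 in edgeR. Akt2 and Foxo1 lie below -1.3 in both tissues, Ybx1 and Tbc1d4 lie between -0.21 and 0.16 (the signs of Ybx1 in BAT and of Tbc1d4 in iWAT flip without normalization factors), and Ptpn1 lies above 1 in both.

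Ybx1 (chromosome 4, 119277327 to 119294513, minus strand) encodes the Y-box protein. It was at 365, 425, 412, 419 and 392 CPM in Control iWAT and at 415, 487, 457, 427 and 475 CPM in Ai-α4KO iWAT. Control BAT libraries held 707, 664, 602, 591 and 635 CPM and Ai-α4KO BAT libraries 465, 478, 669, 595 and 622 CPM. The genotypes overlap in both tissues, and in BAT 2 of the 5 Ai-α4KO libraries lay below all others. The log2 difference was 0.16 in iWAT (SE 0.09, edgeR adjusted p = 0.154) and -0.21 in BAT (SE 0.13, adjusted p = 0.190), and the BAT estimate read 0.04 without normalization factors and on the FPKM scale. In iWAT limma on log2(FPKM + 1) called it higher (adjusted p = 0.00811), the one alternative of those run that did. The iWAT estimate ran from 0.06 to 0.29 over the alternatives and was 0.07 without Control library 1, the lowest of its group. Processed copies of Ybx1 lie elsewhere in the mouse genome, and how reads that match several places were counted is not given in the sources used here.

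Ptpn1, the phosphatase gene that the study places downstream of YBX1, was higher in Ai-α4KO in both tissues. It was at 61.5, 45.5, 37.4, 43.9 and 54.0 CPM in Control iWAT against 122, 110.4, 117, 94.3 and 102 CPM, and at 32.9, 23.2, 28.7, 29.8 and 35.5 CPM in Control BAT against 85.0, 105, 60.2, 60.4 and 64.4 CPM. All Ai-α4KO libraries lie above all Control libraries of their tissue. Ptpn1 rose by 1.16 in iWAT (SE 0.14, edgeR adjusted p = 4.33e-05) and by 1.28 in BAT (SE 0.18, adjusted p = 6.27e-05), among 21.5% and 25% of all genes called higher. Within the same libraries Insr was lower and Ybx1 RNA was not called. The study reports more phosphorylated YBX1 with unchanged total YBX1 protein in α4-knockout preadipocytes, and proposes that α4 keeps YBX1 out of the nucleus. RNA level measures neither. A supplementary caption of the study gives a genotype difference in YBX1 mRNA by qPCR in both tissues, while its text cites that panel for PTP1B. Macrophage markers, which rose in the same libraries, are given above, and their part in the Ptpn1 level was not tested.

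Whether the genotype effect differed between the tissues was tested as an interaction over all 20 libraries. None of the 10 genes passed (0 of 10, with 4.86% of all genes called in edgeR), DESeq2 and limma also called 0, and at an unadjusted p below 0.05 there were 2, Irs1 and Ybx1. Irs1 had the largest estimate named here, an effect in BAT that was 1.11 higher on the log2 scale than in iWAT (SE 0.38, adjusted p = 0.0519). It passed in 1 of the leave-one-out fits, without Ai-α4KO BAT library 2 (adjusted p = 0.00999). Ybx1 differed by -0.35 (SE 0.15, adjusted p = 0.124), Pik3r1 by 0.50 (SE 0.33), Akt1 by -0.46 (SE 0.28), Insr by 0.22 (SE 0.17) and Tbc1d4 by 0.12 (SE 0.18). Leaving out single libraries gave -0.37 to -0.17 for Ybx1, 0.34 to 0.73 for Pik3r1, -0.59 to -0.21 for Akt1, 0.15 to 0.41 for Insr and 0.05 to 0.28 for Tbc1d4. So the calls of Irs1 and Pik3r1 in iWAT and not in BAT are not shown to differ between the tissues.

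Between the tissues of Control mice, 3 of the 10 genes were called (36.8% of all genes). Markers of other cell types differed between the same libraries, with 10 of 10 macrophage, 6 of 6 fibroblast, 6 of 6 T lymphocyte and 5 of 5 B lymphocyte genes tested lower in BAT and 4 of 6 endothelial genes higher, and their part in these values was not tested. Ybx1 was 1.55-fold higher in BAT than in iWAT (log2 0.63, SE 0.09, edgeR adjusted p = 0.000218), with every BAT library above every iWAT library (37.6% of all genes do not overlap), and it passed the adjusted p in every alternative fit. Tbc1d4 was also higher in BAT (log2 0.39, SE 0.10, adjusted p = 0.00619) and Irs1 was lower (log2 -0.83, SE 0.19, adjusted p = 0.00328). The Tbc1d4 call was lost in 14 of the alternatives, among them upper-quartile scaling and limma, and the Irs1 call was lost in 4. Without Control iWAT libraries 1 and 4 the count was 1, and Irs1 read -0.80 (adjusted p = 0.0141). Pik3r1 at -0.86 (adjusted p = 0.0249), Akt2 at 0.33, Foxo1 at 0.34 and Insr at -0.15 did not pass. Insr was called lower in BAT without normalization factors (-0.34, adjusted p = 0.00604) and by limma on log2(FPKM + 1) (-0.31, adjusted p = 0.00465). Pik3r1 was called lower by DESeq2, in one fit of all 20 libraries, and without Control iWAT library 3 or Control BAT library 5 (-1.02 and -1.07). In Ai-α4KO mice 1 of the 10 genes was called (20.3% of all genes), Tbc1d4 at 0.60 (SE 0.15, adjusted p = 0.00939). That call was lost in every leave-one-out fit. At a fold change of at least 2, 0 of the 10 were called in either comparison (21.9% and 11.5% of all genes). Ybx1 at 0.38 (adjusted p = 0.0519, called by DESeq2), Irs1 at 0.39 (0.17 to 0.57 when single libraries were left out) and Pik3r1 at -0.29 did not pass. The tissue and genotype comparisons share libraries, so the values stand side by side only.

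Compared per transcript length, on the FPKM scale, Ybx1 had the highest level of the 10 genes and Akt2 the next in all 4 groups. In Control iWAT Ybx1 was at 165 ± 12.1 FPKM (SD, n = 5) and Akt2 at 123 ± 24.03 FPKM, with ranges that overlap. In Ai-α4KO iWAT the same genes were at 202 ± 12.4 and 53.0 ± 11.9 FPKM and no longer overlapped, while Akt2 then overlapped Akt1 at 40.8 ± 8.53 FPKM. In BAT Ybx1 was at 227 ± 17.3 FPKM in Control and 234 ± 31.02 FPKM in Ai-α4KO, and Akt2 at 137 ± 22.2 and 60.8 ± 11.6 FPKM. Pik3r1, Akt1, Foxo1 and Insr had group means between 10.9 and 41.3 FPKM, and in Control iWAT each overlapped the next in that order. Irs1 and Tbc1d4 had means of 5.23 to 16.4 FPKM. Irs2 and Igf1r were lowest in every group, at 1.16 to 2.81 FPKM, and did not separate from each other in any group.

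Ratios of related genes within a library do not depend on how libraries are scaled to each other. Of 14 ratios tested by exact permutation (two-sided, 252 arrangements, smallest possible p = 0.00794), 9 passed a Benjamini-Hochberg adjusted p below 0.05. Akt2 exceeded Akt1 in FPKM by 3.40, 4.03, 4.55, 4.54 and 4.46 times in Control iWAT and by 1.27, 1.31, 1.151, 1.57 and 1.21 times in Ai-α4KO iWAT. In BAT the ratio was 5.53, 6.31, 6.47, 5.22 and 3.59 in Control and 2.13, 1.52, 1.95, 2.90 and 2.16 in Ai-α4KO. The ratio was nearer to 1 in every Ai-α4KO library than in any Control library of its tissue (log2 change -1.69 and -1.35, adjusted exact permutation p = 0.0159 in both tissues). The geometric mean of the Insr/Igf1r ratio in iWAT was 12.6 in Control and 5.15 in Ai-α4KO, and in BAT it was 11.3 and 5.68 (adjusted exact permutation p = 0.0159 in both).

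For Tbc1d4/Tbc1d1 the iWAT mean was 4.27 in Control and 1.93 in Ai-α4KO, and the BAT mean 7.05 and 4.47 (adjusted exact permutation p = 0.0159 and 0.0278). The BAT ratio no longer passed with 1 added to the FPKM values (adjusted p = 0.0617) or without Control BAT library 1, 2, 3 or 4. Tbc1d4 was not called in either tissue. Tbc1d1, a paralog of Tbc1d4 with a like role, was at 13.6 to 19.6 CPM in Control iWAT and 31.4 to 36.9 CPM in Ai-α4KO iWAT (log2 1.08, SE 0.11, edgeR adjusted p = 1.82e-05) and at 12.47 to 14.7 and 19.8 to 25.9 CPM in BAT (log2 0.69, SE 0.12, adjusted p = 0.00029). With the muscle marker score as a covariate its BAT value was 0.64 and did not pass (adjusted p = 0.0271). Ybx1/Ybx3 went from 3.98 to 1.53 in BAT (adjusted exact permutation p = 0.0159) and from 2.99 to 3.48 in iWAT (adjusted p = 0.0889). Without Ai-α4KO iWAT library 1, which is high in muscle RNA, the iWAT ratio passed (log2 0.28, adjusted exact permutation p = 0.0159). Ybx3, which encodes another Y-box protein, was at 123, 174, 126, 129 and 136 CPM in Control BAT and at 193, 217, 460.3, 435 and 344 CPM in Ai-α4KO BAT (log2 1.23, SE 0.24, edgeR adjusted p = 0.00078). The 3 Ai-α4KO BAT libraries with the most Ybx3 were also the 3 with the most muscle marker RNA, and with that score as a covariate the value was 0.87 (adjusted p = 0.0893). Muscle RNA and genotype cannot be told apart in BAT, and the part of muscle RNA in the Ybx3 level was not tested. Foxo1/Foxo3 fell in both tissues (log2 -1.28 and -1.40, adjusted exact permutation p = 0.0159 and 0.037), but in BAT it did not pass without Control library 1, 2, 3 or 5 or without Ai-α4KO library 1, 2, 4 or 5 (adjusted p = 0.0617 to 0.0864). The Irs2/Irs1 and Pik3r1/Pik3r2 ratios did not pass in either tissue.

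**Figure D3:**
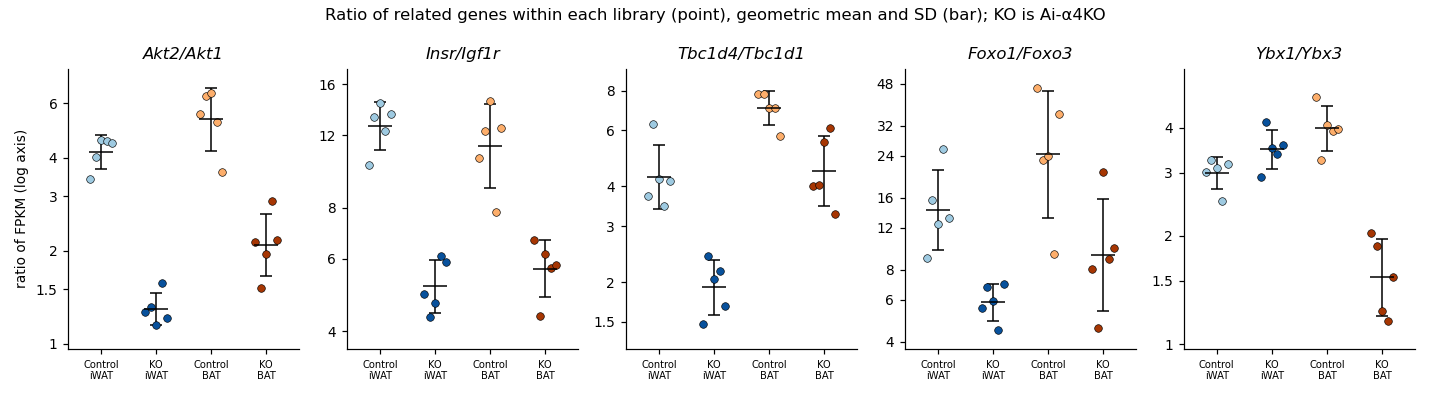
Ratio of FPKM values of related genes within each library on a log axis, for 5 of the 7 pairs; points are libraries and bars the geometric mean with the SD of log2 ratios (n = 5). The Akt2/Akt1 ratio is at most 1.57 in Ai-α4KO iWAT and at least 3.40 in Control iWAT, and Ybx1/Ybx3 separates the genotypes in BAT.

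Because adipocyte RNA was lower in Ai-α4KO tissue, the 10 genes were also given relative to it, with each library scaled to the mean log2 count of the 10 adipocyte markers. On that scale the median of all genes was 1.75 higher in Ai-α4KO iWAT and 1.81 higher in BAT, and 81.7% and 86.8% of all genes were called, 80.8% and 86.1% as higher. Akt2 and Foxo1 were not called on this scale in either tissue, which does not show that they changed as the markers did. The log2 difference was 0.35 for Akt2 and 0.38 for Foxo1 in iWAT (edgeR adjusted p = 0.0823 and 0.105) and 0.42 and 0.22 in BAT (adjusted p = 0.0936 and 0.400). Leaving out single libraries moved the BAT value between 0.23 and 0.53 for Akt2 and between -0.019 and 0.32 for Foxo1. Irs1 at 0.23, Irs2 at 0.23 and Pik3r1 at 0.69 were also not called in iWAT, and Irs2 at 0.62 was not called in BAT. Leaving out single libraries gave 0.12 to 0.32 for Irs1 and 0.04 to 0.79 for Irs2 in iWAT, and 0.48 to 0.86 for Irs2 in BAT. Without Ai-α4KO iWAT library 1, which is high in muscle RNA, Pik3r1 in iWAT was called at 0.82 (adjusted p = 0.00805). Insr was higher than the markers, by 0.81 in iWAT and 1.08 in BAT (SE 0.23 and 0.20, adjusted p = 0.00403 and 8.57e-05), and so lay between them and the median gene. In iWAT 5 of the 10 genes were called, Insr, Igf1r, Akt1, Tbc1d4 and Ybx1, with Ybx1 at 1.93 and Igf1r at 2.12. The Insr call in iWAT was lost without Control library 1 or 5, without Ai-α4KO library 2, 3 or 5, without Control libraries 1 and 4 together (0.79, adjusted p = 0.0243), and with the replicate block (0.76, adjusted p = 0.0148). In BAT 7 were called, the same 5 with Irs1 at 1.49 and Pik3r1 at 1.24.

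**Figure D4:**
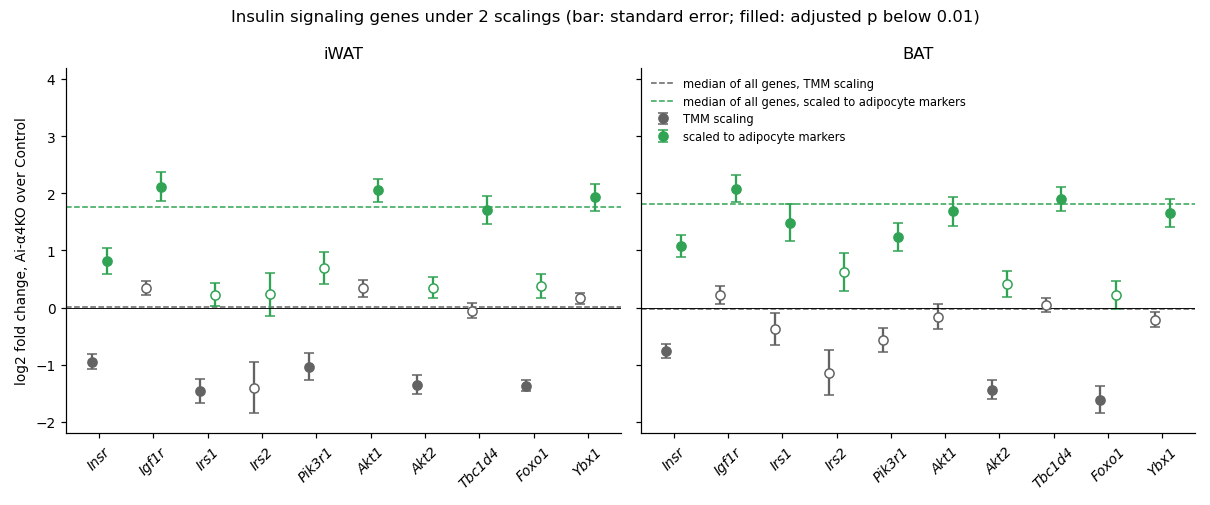
Log2 fold change of Ai-α4KO over Control for the 10 genes with TMM scaling (grey) and scaled to adipocyte markers (green); bars are standard errors, filled points passed an adjusted p below 0.01, and dashed lines are the medians of all genes under each scaling. Scaled to adipocyte markers, Akt2 and Foxo1 lie between 0.22 and 0.42 and Ybx1, Akt1, Igf1r and Tbc1d4 lie between 1.65 and 2.12.

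Around these 10 genes, 96 others of the pathway were listed by role. In iWAT 91 of them were tested, and 18 were higher and 22 lower (edgeR, 44.0% called beside 40.3% of all genes). In BAT 92 were tested, with 24 higher and 30 lower (58.7% beside 49.8%). With the muscle marker score as a covariate the BAT count was 30 of 92, in a fit in which 23.5% of all genes were called. Median log2 fold changes were -0.21 in both tissues. The one role group with calls in a single direction in both tissues was that of other AKT substrates, with 0 higher and 4 lower of 9 in iWAT, against 0 higher and 7 lower of 10 in BAT. Among them Acly, which makes acetyl-CoA for fat synthesis, fell by 3.36 in iWAT and fell by 3.03 in BAT, and Pde3b, the phosphodiesterase through which insulin restrains lipolysis, fell by 1.85 and fell by 2.09.

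By role group, 25% to 60% of the genes tested were called in iWAT and 25% to 77.8% in BAT, beside the 40.3% and 49.8% of all genes, and with 7 to 10 genes a group the difference from that background was not tested. Among inhibitors of the receptor, 4 of 9 genes were higher in iWAT and 0 lower, and 6 were higher and 1 lower in BAT. Ptpn1 is one of them. Socs3, a cytokine-induced protein that blocks the receptor and IRS proteins, rose by 2.64 in iWAT and by 4.02 in BAT (SE 0.32 and 0.31), from a mean of 9.66 to 60.4 CPM and from 3.94 to 65.9 CPM. Enpp1, a membrane protein that binds and inhibits the receptor, rose by 1.92 and by 3.12. Adaptors other than Irs1 and Irs2 had 2 higher and 4 lower of 10 in each tissue. Sh2b2 (APS), an adaptor that binds the active receptor, fell by 1.64 in iWAT and fell by 2.01 in BAT, and Irs3, the substrate found in rodent fat, fell by 1.58 and fell by 2.57.

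Pik3cg and Pik3cd, the catalytic subunits of leukocytes, rose by 1.68 and 1.29 in iWAT and by 3.18 and 3.11 in BAT. Pik3cb, a widely expressed catalytic subunit, fell by 1.38 in iWAT, and in BAT its value of -0.24 did not pass and read 0.03 without normalization factors. The Pik3cd call in iWAT (adjusted p = 0.00956) was lost in upper-quartile scaling, without the filter, in 8 leave-one-out fits (without Control library 2, 3 or 5 or any Ai-α4KO library) and without the pair of libraries high in muscle RNA (1.44, adjusted p = 0.0144). The PI3 kinase group had 3 higher and 2 lower of 10 in iWAT, against 3 higher and 1 lower in BAT. Kinases and regulators around AKT had 1 higher and 2 lower of 10 in iWAT, against 0 higher and 5 lower in BAT, with Mtor down by a log2 of -1.12 and -1.73. GLUT4 traffic genes had 3 higher and 3 lower of 10 in each tissue, and the sorting receptor Sort1 fell by 1.54 and fell by 1.21.

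Genes known as FOXO targets had 1 higher and 4 lower of 10 in iWAT, against 2 higher and 5 lower in BAT. Pck1, which makes glycerol phosphate for re-esterification in fat, fell by 3.42 and fell by 2.91, and Klf15 fell by 2.37 and fell by 1.38. Fbxo32, a ubiquitin ligase of muscle atrophy, rose by 1.83 in BAT and was 0.49 there with the muscle marker score as a covariate (adjusted p = 0.524). That BAT call was also lost without Control BAT library 3 or 5 and without Ai-α4KO BAT library 3. Ligands and binding proteins had 0 higher and 2 lower of 8 in iWAT, against 4 higher and 1 lower in BAT. Igfbp4 fell by 0.83 in iWAT and rose by 0.87 in BAT, and Igf1 was -0.47 in iWAT, which did not pass, and rose by 1.01 in BAT. The muscle score as a covariate took away the BAT calls of Igf1 and Igfbp4 (0.31 and 0.64). The RAS and ERK branch had 2 higher and 0 lower of 8 in iWAT and 1 of each in BAT, with Nras up by 0.94 and 0.91 in log2.

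Around YBX1, the listed cold shock proteins and RSK kinases had 2 higher and 1 lower of 7 in iWAT, against 3 higher and 2 lower in BAT. Ybx2, the germ cell paralog that is also used in brown fat, fell by 2.77 in iWAT and fell by 2.67 in BAT (SE 0.24 and 0.26), from a mean of 7.09 to 1.04 CPM and from 30.4 to 4.90 CPM. Ybx2 (chromosome 11, 69935899 to 69941599) and Slc2a4 (69942286 to 69948190) are neighbours on opposite strands with facing ends, and whether counting used the strand is not given in the sources used here. The RSK kinase genes Rps6ka1 and Rps6ka3, whose products phosphorylate YBX1, rose by 0.90 and 1.42 in iWAT and by 1.76 and 0.84 in BAT. In BAT the Rps6ka3 call was lost with the muscle marker score as a covariate (0.82, adjusted p = 0.0662).

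**Figure D5:**
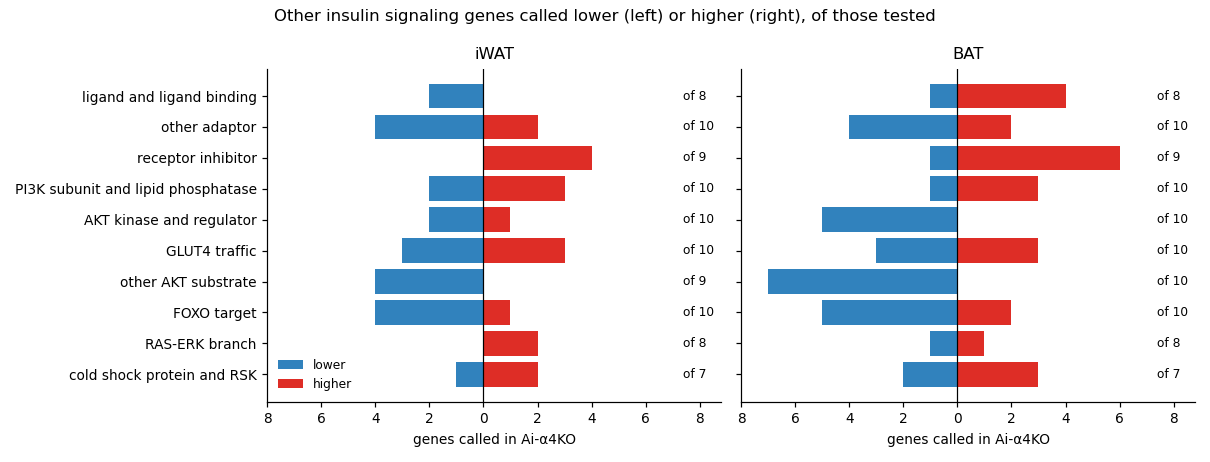
Number of other insulin signaling genes called lower (blue, left) or higher (red, right) in Ai-α4KO by role, in iWAT and BAT, at an adjusted p below 0.01 in edgeR, with the number tested at the right of each bar. Other AKT substrates were called lower only (4 of 9 and 7 of 10), and 6 of 9 receptor inhibitors were higher in BAT.

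Among the genes whose pattern over the 20 libraries was most like Insr, by the root mean square difference of centred log2 CPM among 15230 genes, were Tceanc (0.179) and Usp33 (0.179). The mean of Usp33 was 112 CPM in Control iWAT and 68.2 CPM in Ai-α4KO iWAT, and 114 and 63.8 CPM in the BAT groups. For Ybx1 the 3 most alike were Rnf7 (0.109), Ube2a (0.113) and Lamtor5 (0.119), each higher in the mean of Control BAT than of Control iWAT, as for Rnf7 at 154 against 104 CPM. These distances are a description over libraries that share groups and scaling.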

How the data were processed

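RNA of iWAT and BAT was sequenced from stranded mRNA libraries with paired reads. For each library, the table deposited by the authors gives expected counts and FPKM values by gene. Per the submitters' processing notes, reads were made with bcl2fastq 2 and aligned to mm10 with STAR 2.5.3a. The counting tool, its version and the annotation are not given in the sources used here.

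Expected counts were rounded and tested with edgeR 4.0.16 in R 4.3.3 (TMM normalization, filterByExpr, quasi-likelihood test, Benjamini-Hochberg adjustment over all genes tested), and a gene was called at an adjusted p below 0.01. CPM values use TMM factors over all 20 libraries. Levels between genes and ratios use the deposited FPKM. Alternatives were DESeq2 1.42.0, limma 3.58.1 on log2(FPKM + 1) and log2(FPKM + 0.1), other scalings and filters, each library left out in turn, a replicate block, fits without the iWAT libraries high in B lymphocyte RNA, and, chosen after seeing the data, fits without the iWAT libraries high in muscle RNA and fits in which the muscle score was a covariate. In data simulated for the iWAT comparison, edgeR recovered 199 of 200 changed genes with 2 false calls among 14604 genes. The simulation gave all genes the same small spread between libraries. It changed only well-counted genes, by at least 2-fold, and left the rest unchanged. The real libraries differ in each of these, so the simulation checks that the code runs as intended and not the error of the calls above. Precision rests on 24023371 to 50384446 counts a library.

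The members and gene lists were chosen with earlier results of these data known. Genes named were the 10, Igbp1, Ptpn1, Slc2a4, the 3 genes most like Insr and Ybx1, and the 2 pathway genes with the largest change among those called in each role group and tissue, with Tbc1d1 and Ybx3 added after their values were seen. Some genes that this rule names are not reported here.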

Additional observations from a re-analysis of the deposited data

Results flagged for a closer look

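In 52 groups of 5 libraries tested with Dixon's criterion, a test that flags about 1 in 20 groups by chance, 3 held a library far from the other 4. Irs2 was at 27.7 CPM in Control iWAT library 1, beside 4.86 to 11.2 CPM in the others of its group. Pik3r1 was at 209 CPM in Ai-α4KO iWAT library 4, beside 147 to 162 CPM. Akt1 was at 150 CPM in Ai-α4KO iWAT library 1, which is also high in muscle RNA, beside 92.9 to 108 CPM.

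By the interaction test in edgeR none of the 10 genes passed, while 11 of the 92 pathway genes tested did, 10 with a higher effect in BAT than in iWAT and 1 with a lower one. Over all genes 4.86% passed, and of these calls 67.0% had a higher effect in BAT, or 84.0% without normalization factors. The 7 of them named here had a higher effect in BAT on the log2 scale. The difference was 1.73 for Igfbp4 (adjusted p = 0.000233), which fell in iWAT and rose in BAT, and 1.5 for Igf1 (adjusted p = 0.0056). It was 1.52 for Pik3cg (adjusted p = 0.00291) and 1.86 for Pik3cd (adjusted p = 0.00677), which rose in both tissues, and 1.18 for Pik3cb (adjusted p = 0.00318), which fell in iWAT. Fbxo32 differed by 2.42 (adjusted p = 0.00614) and Ybx3 by 1.32 (adjusted p = 0.0041), and the BAT calls of Fbxo32, Ybx3, Igf1 and Igfbp4 were lost with the muscle marker score as a covariate.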

How the results depend on the processing

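The calls of Insr, Irs1, Akt2 and Foxo1 in iWAT and of Insr and Akt2 in BAT passed the adjusted p in every alternative fit, although Insr changed by under 2-fold in both tissues. Leaving out each library in turn gave 4 to 6 calls among the 10 genes in iWAT, 3 to 4 in BAT, 0 to 1 for the difference between tissues, 1 to 4 between tissues in Control and 0 in Ai-α4KO. With all libraries, 40.3%, 49.8%, 4.86%, 36.8% and 20.3% of all genes were called in these comparisons, in that order. In BAT 5 of the 10 genes passed at an adjusted p below 0.05, as did 63% of all genes. Between tissues the Control count was 1 without Control iWAT libraries 1 and 4 and 0 at a fold change of at least 2. The Ai-α4KO count was 2 with DESeq2 and 0 with library size, upper quartile, either limma fit, a fold change of at least 2, or without Control iWAT library 4 and Ai-α4KO iWAT library 1. Of the pathway genes in BAT, 30 of 92 were called with the muscle score as a covariate (23.5% of all genes) and 31 at a fold change of at least 2 (31.5%), a share near that of all genes.

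Some values that were not called changed sign, and the cause was not tested. With library size only, limma log2(FPKM + 1) and limma log2(FPKM + 0.1) in that order, the value was 0.065, 0.063 and 0.068 for Tbc1d4 in iWAT, 0.11, 0.16 and 0.17 for Akt1 in BAT, 0.042, 0.041 and 0.041 for Ybx1 in BAT, 0.057, 0.073 and 0.074 for Ybx3 in iWAT, and 0.032, 0.021 and 0.025 for Pik3cb in BAT. Tbc1d4 read 0.0092 in iWAT without the pair of muscle-rich libraries and -0.0047 in BAT with the muscle score. Leaving out each library gave -0.14 to 0.029 for Tbc1d4 in iWAT, -0.017 to 0.092 for it in BAT, -0.30 to 0.088 for Akt1 in BAT, -0.16 to 0.024 for Ybx3 in iWAT, -0.019 to 0.32 for Foxo1 in BAT scaled to adipocyte markers, and -0.12 to 0.23 for the log2 Pik3r1/Pik3r2 ratio in BAT.

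Replicate numbers are shared by the groups, but same-numbered libraries correlated at -0.45 to 0.24, so they share only a number. With the replicate block, 5 of the 10 genes were called in iWAT and 3 in BAT, beside 5337 of 14604 and 6135 of 14344 genes tested. Between tissues 2 of the 10 were called in Control and 1 in Ai-α4KO, beside 4715 of 14260 and 2178 of 14703 genes tested. Insr scaled to adipocyte markers in iWAT was not called with the block (0.76). Of the 14 ratios 0 passed, since 5 pairs cannot reach the threshold in an exact test. Irs2, with the fewest counts, is the gene of the 10 for which depth limits the precision most.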
